A study of Mus musculus with 21 samples.

Results

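The Serpina3 cluster of the mouse is a run of 14 related genes and pseudogenes on chromosome 12 (chr12:104112724-104414334, GRCm38, RefSeq). The 6 genes described here, Serpina3f, Serpina3g, Serpina3h, Serpina3i, Serpina3m and Serpina3n, were taken by their symbols from a deposited count table of 48474 rows. The group was chosen by its measured difference between TG and WT mice in these same libraries, so the members' values in that contrast are given as a description without a test. All 6 lie in the cluster, and Serpina3h is annotated as a transcribed pseudogene.

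RNA from the neocortex of 21 mice was sequenced, 11 labelled WT and 10 labelled TG, and every mouse is a separate animal. The labels and the study's methods name the cortex, while a figure legend of the study gives hippocampus for rNLS8 mice, and the tissue is called neocortex here after the labels. TG mice were rNLS8 animals, in which the neurofilament heavy chain promoter, through the doxycycline-controlled activator tTA, drives human TDP-43ΔNLS, a form of TDP-43 without its nuclear localization signal. The transgene is thus largely confined to neurons, although a few oligodendrocytes can carry it. WT mice were littermates that the submitters describe as monogenic, so a single transgene without its partner can be present in them. All 21 mice, WT included, were injected at an age of 17 to 19 weeks with a non-targeting ASO (antisense oligonucleotide), given intracerebroventricularly at 350 µg in 10 µL. All were fed doxycycline at 200 mg/kg of diet, which keeps the transgene off, until 2 weeks after that injection, and tissue was taken 3 weeks after the switch to standard chow. The labels give each mouse a batch, A or B, which the submitters' design text calls cohorts done independently. Cohort A had 4 WT and 3 TG mice and cohort B 7 WT and 7 TG mice.

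Serpins are protease inhibitors that work as bait. A protease cuts an exposed stretch of the serpin, the reactive centre loop, and is then trapped on it, so the sequence of this loop largely sets which protease is caught. In humans a single gene, SERPINA3, encodes the acute-phase protein alpha-1-antichymotrypsin, whereas rodents carry a cluster of copies whose loops have diverged. Serpina3n is a secreted member that is induced in reactive astrocytes and in disease-associated oligodendrocytes, and granzyme B and cathepsin G are among its known targets. Serpina3g, also called Spi2A, acts inside cells and is known for the inhibition of lysosomal cysteine cathepsins in lymphoid and myeloid cells. Serpina3k and Serpina3m are known mainly as liver genes.

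The coding DNA of the loop shows how far the members have moved apart, and it is printed here because this is the stretch that separates one member's target from another's. Each run covers 72 bases in the last exon of the gene, read in the coding frame from GENCODE M21 transcripts (GRCm38, plus strand), and capitals mark bases that differ from Serpina3n. The Serpina3n run lies in exon 5 at chr12:104413445-104413516, and that of Serpina3g at chr12:104241069-104241140.
Serpina3n: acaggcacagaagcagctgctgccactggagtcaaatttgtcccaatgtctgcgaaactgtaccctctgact
Serpina3i: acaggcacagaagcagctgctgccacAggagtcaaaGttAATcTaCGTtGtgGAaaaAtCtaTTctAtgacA
Serpina3m: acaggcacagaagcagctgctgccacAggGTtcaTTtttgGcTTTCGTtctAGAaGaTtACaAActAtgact
Serpina3g: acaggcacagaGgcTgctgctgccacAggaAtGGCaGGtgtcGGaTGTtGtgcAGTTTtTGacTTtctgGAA
Serpina3f: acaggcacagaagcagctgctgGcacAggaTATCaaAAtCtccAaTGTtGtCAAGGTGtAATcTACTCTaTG
Serpina3i differed from Serpina3n at 18 bases, Serpina3m at 22, Serpina3g at 27 and Serpina3f at 32. Of these differences, 1 to 3 per gene fell within the first 27 bases, which encode the hinge that lets the cut loop insert into the body of the serpin. Each run was placed where these 27 bases came closest to those of Serpina3n, so their low number of differences follows in part from the search. The remaining bases encode the bait and the stretch after it. For the pseudogene Serpina3h, no stretch of the transcript came closer to this hinge than 12 differences in 27 bases.

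Outside the loop the members are close copies, which bears on how far their reads can be told apart. Along whole transcripts, the other 5 members shared between 79.4% and 84.2% of aligned bases with Serpina3n. Of the 1965 windows of 100 bases (the read length) in the Serpina3n transcript, 4 (0.204%) were identical in another gene, the pseudogene Serpina3e-ps, and 3.87% came within 2 mismatches of another gene of the cluster. In the other members, 2.33% to 6.09% of windows were identical in another gene and 12.5% to 23.4% came within 2 mismatches. A read from Serpina3n was therefore seldom ambiguous, whereas counts of the other 5 members may include reads of their neighbours. The annotated model of Serpina3m in GENCODE also runs over Serpina3k, so reads of these genes can be shared.

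Library totals ran from 20700912 to 22263809 counts, so 3 counts corresponded to 0.135 to 0.145 CPM (counts scaled to 1000000 per library). Intervals given with counts are 95% intervals of counting error only, since the reads carried no molecular identifiers. Neuronal markers were abundant in every mouse and Alb, the liver's albumin gene, had 23 counts in all mice together. The summed neuronal markers differed between the genotypes without overlap, with 10282 to 12723 CPM in WT and 7648 to 9699 CPM in TG mice. Markers of the choroid plexus, a secretory epithelium of the ventricles, varied from 24.2 to 2289 CPM between mice. T_60303, a TG mouse of cohort A, had the highest summed interferon (689 CPM), microglial (572 CPM) and reactive astrocyte (799 CPM) genes of all mice. Several results that rest on it are given with and without it, while fold changes and ratios of cohort A alone include it. In bulk tissue, more cells of a type and more RNA per cell cannot be told apart.

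In this cortex the cluster was expressed almost entirely as Serpina3n. It held 8336 of the 8493 counts of the 6 members (98.2%), and its share was between 93.9% and 99.1% in each WT mouse and between 97.1% and 99.8% in each TG mouse. Serpina3g followed with 111 counts over all 21 mice, then Serpina3h with 20, Serpina3f with 13, Serpina3i with 7 and Serpina3m with 6. Another 6 rows of the cluster held 40 counts together, of which 33 belonged to Serpina3c and 3 to the liver gene Serpina3k, while Serpina3j was at 0 in every mouse.

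Set against transcript length, as RPKM (CPM divided by the length in kilobases), the level of Serpina3n was 5.76 (95% interval 5.55 to 5.99) in WT and 12.32 (11.9997 to 12.645) in TG mice. Serpina3g stood at 0.142 (0.108 to 0.183) in WT and 0.133 (0.0993 to 0.173) in TG mice. By counts per length, the level of Serpina3n was 22.8 times that of Serpina3g in WT and 137 times in TG mice of cohort A. In cohort B it was 80.2 times in WT and 77.1 times in TG mice, and the difference of these ratios was not tested. Serpina3h, at 0.0356 RPKM in WT and 0.0364 in TG, was below Serpina3g with intervals that did not overlap, in counts pooled over both cohorts. Below it, the order was Serpina3m, Serpina3f and Serpina3i in WT and Serpina3f, Serpina3i and Serpina3m in TG, and no neighbours in either order differed beyond their counting intervals.

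**Figure D1:**
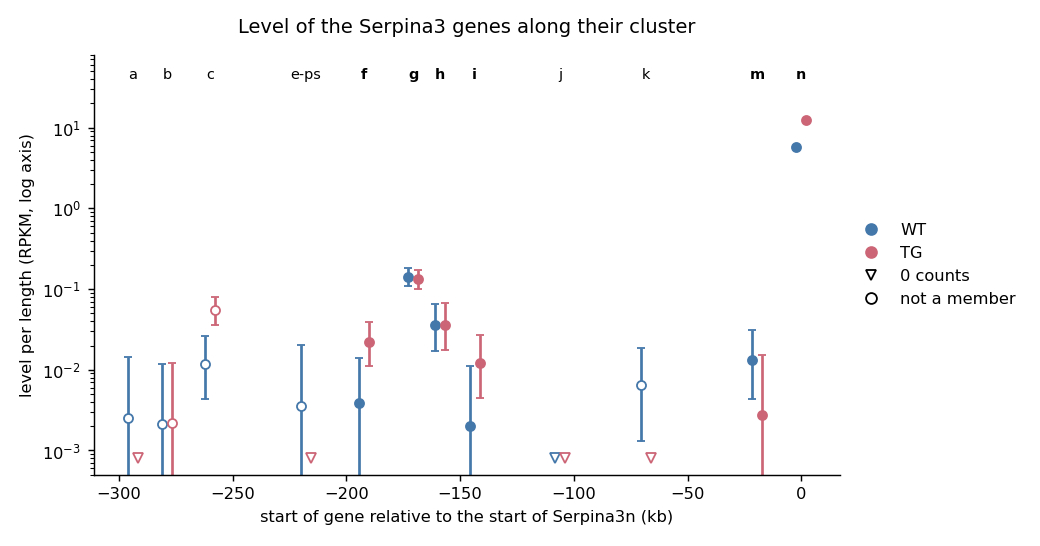
Level per length of the Serpina3 genes counted in the table (RPKM, log axis), placed by the distance of each gene's start from that of Serpina3n. Points are pooled counts of the 11 WT and 10 TG mice with 95% counting intervals, open points are genes of the cluster outside the 6 members, and open triangles stand for 0 counts. Serpina3n, at 5.76 RPKM in WT and 12.32 in TG, lies far above every other gene, and Serpina3g is next at 0.142 RPKM in WT and 0.133 in TG, pooled over both cohorts.

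Serpina3n was higher in every TG mouse than in any WT mouse. Scaled to a common library size, WT mice had a lowest value of 205 normalized counts, a median of 230 and a highest of 356. TG mice had a lowest value of 421, a median of 483 and a highest of 1001. The groups did not overlap, with all 10 TG mice above the highest WT mouse. The means were 254 ± 47.5 (SD, n = 11) in WT and 543 ± 171 (SD, n = 10) in TG mice, a ratio of 2.14. The fit with genotype and cohort gave a log2 fold change of 1.10 (standard error 0.11). In that fit 43.6% of the 19052 genes tested passed an adjusted p of 0.05, with 22.4% higher and 21.2% lower in TG. Of the genes called, 51.3% were higher, and 68.0% with library size alone as the scaling. Serpina3n was the only 1 of the 6 members with enough counts to enter the fit, and it was among the genes called higher, which follows from how the members were chosen.

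Most of the spread of Serpina3n in TG mice came from T_60303. This mouse had 1001 normalized counts, while the other 9 TG mice lay between 421 and 609 around a mean of 492 ± 61.1 (SD). Without it the coefficient of variation in TG mice went from 31.5% to 12.4%, against 18.7% in WT mice, and the log2 fold change was 0.98. Counting error alone would give a coefficient of variation of 6.39% in WT and 4.21% in TG mice.

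The cohorts were then compared. In cohort A, the WT mice had 205, 224, 309 and 356 normalized counts and the TG mice 539, 609 and 1001. In cohort B, the lowest, median and highest values were 213, 230 and 281 in the 7 WT mice and 421, 465 and 542 in the 7 TG mice. Within each cohort the genotypes stayed apart, with a log2 fold change of 1.42 in cohort A alone and 0.94 in cohort B alone.

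**Figure D2:**
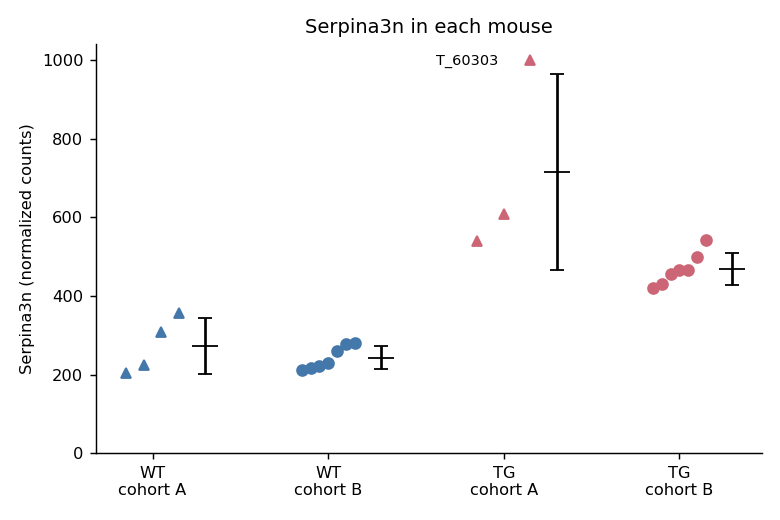
Serpina3n in each mouse (normalized counts, linear axis from 0) by genotype and cohort, with the mean and SD of each group beside its points. All 10 TG mice lie above the highest WT mouse at 356, and T_60303 at 1001 stands apart from the other 9 TG mice at 421 to 609.

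Whether the genotype difference itself changed between cohorts was tested by the interaction term, which the choice of members had not used. Serpina3n gave 0.44 on the log2 scale (standard error 0.22) for cohort A over cohort B, which did not pass (adjusted p = 0.870 by edgeR's quasi-likelihood test). Without T_60303 the term fell to 0.12 (adjusted p = 0.876), and over all alternatives the adjusted p ranged from 0.272 to 0.9996. Of 19537 genes in this fit, 0% were called after adjustment, while 5.6% had an unadjusted p under 0.05 and DESeq2 called 1 gene. The baseline of Serpina3n was tested separately in WT mice, where cohort A exceeded cohort B by a log2 difference of 0.16 (SE 0.14, adjusted p = 0.508; 0.01 without T_61334 and 0.29 without T_61333, adjusted p 0.215 to 0.965 over the alternatives), in a fit that called 8.03% of 18532 genes. In TG mice, the mean was 716 normalized counts in cohort A and 469 in cohort B (exact two-sided permutation test, p = 0.0167, n = 3 and 7). Without T_60303 the difference was 105 normalized counts (exact permutation p = 0.0556, where the smallest possible p is 0.0278).

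The other 5 members had too few counts for the genotype fit and are given by their reads. Serpina3g, the intracellular cathepsin inhibitor, was detected in all 21 mice with 1 to 14 counts. It had 58 counts over the 11 WT mice and 53 over the 10 TG mice, a ratio of 0.935 in CPM (0.632 to 1.38). This pools cohorts with opposite ratios of the mean normalized counts, 0.435 in cohort A and 1.99 in cohort B. Its groups overlapped throughout, with none of the 10 TG mice above the highest WT mouse. The transcribed pseudogene Serpina3h had 10 counts in each genotype, a ratio of 1.02 (0.382 to 2.74), so a change as large as that of Serpina3n lay within its counting error.

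Serpina3f, Serpina3i and Serpina3m were close to the limit of detection. Serpina3f had 2 counts in 2 of 11 WT mice and 11 counts in 5 of 10 TG mice, a ratio of 5.63 with a counting interval of 1.23 to 52.2. T_60303 held 5 of those 11 counts, and without it the ratio was 3.42 (0.611 to 34.6). Serpina3i had 1 count in WT and 6 counts in 4 TG mice (ratio 6.14, 0.745 to 282). Serpina3m, a gene mainly of the liver, had 5 counts in 4 WT mice and 1 count in TG (ratio 0.205, 0.00433 to 1.83). Without T_60303, the counting intervals of Serpina3f, Serpina3i and Serpina3m all include a ratio of 1. Summing the counts of all 6 members gave a log2 fold change of 1.08, and summing every row of the cluster gave 1.08 as well. Serpina3n makes up nearly all of both sums, and reads moved between copies leave a sum unchanged. The sums thus do not show how reads of the low members were assigned.

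Outside the members, Serpina3c was the only gene of the cluster besides Serpina3n and Serpina3g with over 20 counts, and it is named here after its values were seen. It had 6 counts in 4 of 11 WT mice and 27 counts in 9 of 10 TG mice, a ratio of 4.603 (1.86 to 13.6).

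Serpina3g differed between the cohorts in WT mice. In WT mice of cohort A it had 4, 11, 11 and 14 counts. In WT mice of cohort B it had between 1 and 5 counts, with a median of 2. In TG mice it had 3, 3 and 8 counts in cohort A and between 1 and 9, with a median of 7, in cohort B. Cohort A exceeded cohort B in WT mice, with 3 of 4 mice above the highest of the other cohort, and the order was not seen in TG mice.

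The test of this pattern was chosen after the counts had been seen. In normalized counts the WT means were 10.5 ± 4.41 (SD, n = 4) in cohort A and 2.65 ± 1.29 (SD, n = 7) in cohort B, a difference of 7.81 (exact two-sided permutation test, p = 0.00606, where the smallest possible p is 0.00303). With each WT mouse left out in turn the difference stayed between 6.42 and 9.88 and the exact permutation p between 0.00476 and 0.0167. Serpina3g did not pass the filter on low counts in WT mice alone, and edgeR without that filter gave a log2 difference of 1.93 (standard error 0.43, adjusted p = 0.0144), in a fit that called 3.28% of 33119 genes. In TG mice the means were 4.54 and 5.28 (exact permutation p = 0.767). Serpina3g entered the fit of the interaction only because 3 of the 4 WT mice of cohort A, where it is high, reached 10 counts. Its interaction of genotype and cohort was -2.13 on the log2 scale (standard error 0.72) and did not pass after adjustment over all genes (adjusted p = 0.848). The opposite behaviour of the genotypes is thus not shown.

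**Figure D3:**
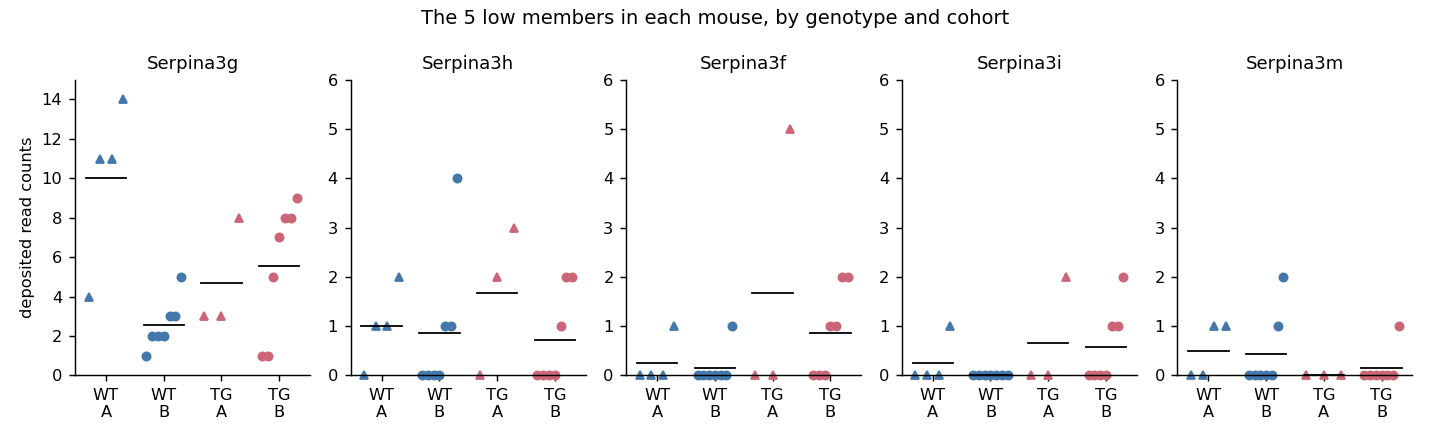
Deposited read counts of the 5 low members in each mouse by genotype and cohort, with black lines at the group means; the axis of Serpina3g reaches 15 counts and the others 6. Serpina3g stands at 4 to 14 counts in WT mice of cohort A and at 1 to 5 in WT mice of cohort B, and T_60303 holds the 5 counts that form the highest point of Serpina3f.

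Choroid plexus markers also differed between the cohorts in WT mice. Their summed level was 214 to 2289 CPM in cohort A and 24.2 to 512 CPM in cohort B. Of the 8 markers, 5 were called higher in cohort A, as were 4.35% of all genes tested in WT mice. Across the 21 mice, Pearson's r between Serpina3g and the choroid plexus sum on the log2 scale was 0.57 (permutation p = 0.00702, adjusted p = 0.0417 over 13 cell type lists). Spearman's rho was 0.53 (permutation p = 0.0138, adjusted p = 0.0754), and without the 2 mice farthest from the median r was 0.52. These p-values shuffle all mice and so include the difference between cohorts. Within cohorts r was 0.85 over the 7 mice of A and 0.35 over the 14 mice of B. With the means of genotype and cohort removed and mice permuted only within them, an analysis added after the values were seen, r was 0.37 (permutation p = 0.0888, adjusted p = 0.275). Markers of meninges and fibroblasts had an r of 0.62 (permutation p = 0.00170, adjusted p = 0.0221) and a rho of 0.52 (adjusted p = 0.0754) across all mice, and an r of 0.50 with those means removed (permutation p = 0.0422, adjusted p = 0.274). Ttr, with 191803 counts over all mice, was the most abundant gene of both the choroid plexus list and the hepatocyte list. The hepatocyte list had an r of 0.55 (adjusted p = 0.0417) and a rho of 0.52 (adjusted p = 0.0754), and an r of 0.35 with the means removed (adjusted p = 0.275). The other 10 lists did not pass either way, and the highest r within genotype and cohort was that of macrophages and monocytes at 0.63 (permutation p = 0.00999, adjusted p = 0.130). Of the 13 lists, 0 passed after adjustment once genotype and cohort were removed, and 2 had an unadjusted p under 0.05. Removing the cohort means also removes the difference between the cohorts, so these values do not bear on it. The part of choroid plexus or other tissue in the cohort difference of Serpina3g in WT mice was not tested.

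The regions ahead of the genes were compared next, since the members differed in level. RefSeq promoter records (GRCm38.p6) were at hand for 4 of the 6 members. The stretches of Serpina3n and Serpina3g are printed, the members with the clearest patterns, at chr12:104406527-104406645 and chr12:104236052-104236132 on the plus strand. Both end ahead of the annotated starts, and capitals mark matches to the motifs named after them.
Serpina3n: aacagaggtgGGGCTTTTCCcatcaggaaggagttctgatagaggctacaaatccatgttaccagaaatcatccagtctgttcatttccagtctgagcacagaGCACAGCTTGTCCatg
Serpina3g: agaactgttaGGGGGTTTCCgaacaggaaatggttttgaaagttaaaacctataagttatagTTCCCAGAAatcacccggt
An NF-kappaB-like motif, GGG followed by any 2 bases and TTTCC, was found on the plus strand within 250 bases ahead of the transcript starts of Serpina3n, Serpina3g and Serpina3i, and 1.40% of 27025 promoters held it on either strand. A STAT palindrome, TTCNNNGAA, was present ahead of Serpina3f, Serpina3g and Serpina3i and in 7.18% of promoters. Serpina3n lacked these letters and instead held a match to a glucocorticoid element, GNACA followed by any 3 bases and TGTNC, seen in 0.381% of promoters. An interferon element, GAAA followed by any 2 bases and GAAA, found in 3.04% of promoters, matched none of the 4. Aligned over the same 250 bases, Serpina3g, Serpina3f and Serpina3i shared 69.9%, 68.5% and 73.5% of aligned bases with Serpina3n. Both strands were searched for each motif. A match describes the sequence and does not show that a factor binds.

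Pathways known to act on Serpina3 genes were then counted in the same genotype fit, in which 22.4% of all genes tested were higher, 21.2% lower and the median log2 fold change was -0.0019. Signals through the receptor subunit gp130 reach STAT3, an activator of acute-phase genes. Of 17 genes tested in this list, 6 rose and 2 fell, with a median log2 fold change of 0.08. Over the 31 alternatives 1 to 7 were higher and 0 to 3 lower. Bcl3, a co-regulator of NF-kappaB, rose by 1.21 (standard error 0.31, adjusted p = 0.00233) and Osmr, the oncostatin M receptor, by 0.59 (standard error 0.09, adjusted p = 9.02e-06). Stat3 itself had 975 to 1121 normalized counts in WT and 1182 to 1307 in TG mice, without overlap (log2 fold change 0.22, adjusted p = 1.13e-05). Socs3, which STAT3 induces and which feeds back on gp130, fell by 0.28 on the log2 scale (adjusted p = 0.0420). Neither gene that fell was called when only library size was used for scaling. The cytokine Il6 had 14 counts in each genotype and entered no test.

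The interferon list moved furthest. Of 18 genes tested, 16 rose and 0 fell, and their median log2 fold change was 1.42. Irf7, a transcription factor that amplifies the interferon response, rose by 3.21 (standard error 0.20), Isg15 by 3.17, Ifit1 by 3.04 and Usp18 by 2.97. The interferons themselves were at the limit of detection, with 2 counts of Ifng and 1 of Ifnb1, all in TG mice.

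In the list of interleukin 1, TNF and NF-kappaB, 10 of 17 genes tested rose and 1 fell, with a median log2 fold change of 0.22. The monocyte chemokine Ccl2 rose by 2.58 (standard error 0.42), Il1a by 1.10 and the adhesion molecule Icam1 by 1.002, and Ptgs2, the inducible cyclooxygenase of neurons, fell by 0.69 on the log2 scale. Among 12 genes of the glucocorticoid receptor pathway, 4 rose and 0 fell (median 0.11), led by Hif3a at 0.71 (standard error 0.22, adjusted p = 0.0108), followed by Zbtb16 at 0.37, Tsc22d3 at 0.23 and Fkbp4 at 0.21. In cohort B alone only 1 of the 4 was called, with Hif3a at 0.36 (adjusted p = 0.290 by edgeR) against 1.40 in cohort A and Zbtb16 at 0.18 against 0.74. The receptor gene Nr3c1 had a log2 fold change of -0.11 (adjusted p = 0.126).

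Serpina3n is a marker of reactive astrocytes and of disease-associated oligodendrocytes, and both lists were counted without it. Of 19 reactive astrocyte genes tested, 9 rose and 0 fell, with a median log2 fold change of 0.31. This list shares Gbp2 with the interferon list, and Osmr and Clcf1 with the gp130 list, so these counts are not independent. Cxcl10 had 0 to 11.6 normalized counts in WT and 46.0 to 243 in TG mice (log2 fold change 5.31, standard error 0.29), Psmb8, an immunoproteasome subunit, rose by 1.30 and Gbp2 by 1.21. Gfap, the intermediate filament of astrocytes, rose by 1.03 (standard error 0.11), close to the 1.10 of Serpina3n. Genes that mark astrocytes in the resting cortex went the other way, with 0 of 11 higher and 7 lower (median -0.18), and with library size alone 1 was higher and 3 lower.

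Of 12 disease-associated oligodendrocyte genes, 6 rose and 0 fell (median 0.32). The complement gene C4b rose by 2.12 (standard error 0.13), the lipid droplet gene Plin4 by 1.89, and the class I genes H2-D1 and B2m by 1.502 and 1.38. The 6 genes not called included Il33, which the study treats as a key marker of this state, at -0.03 (adjusted p = 0.810 by edgeR). Apoe, at 0.04 (adjusted p = 0.507 by edgeR), was another. The study had examined markers of this kind in rNLS8 mice, so the direction of this list is no independent evidence. Of 11 general oligodendrocyte markers, 0 were higher and 1 lower, and of 10 microglial markers 4 were higher and 1 lower. Which cells carried the additional Serpina3n RNA cannot be read from bulk tissue.

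**Figure D4:**
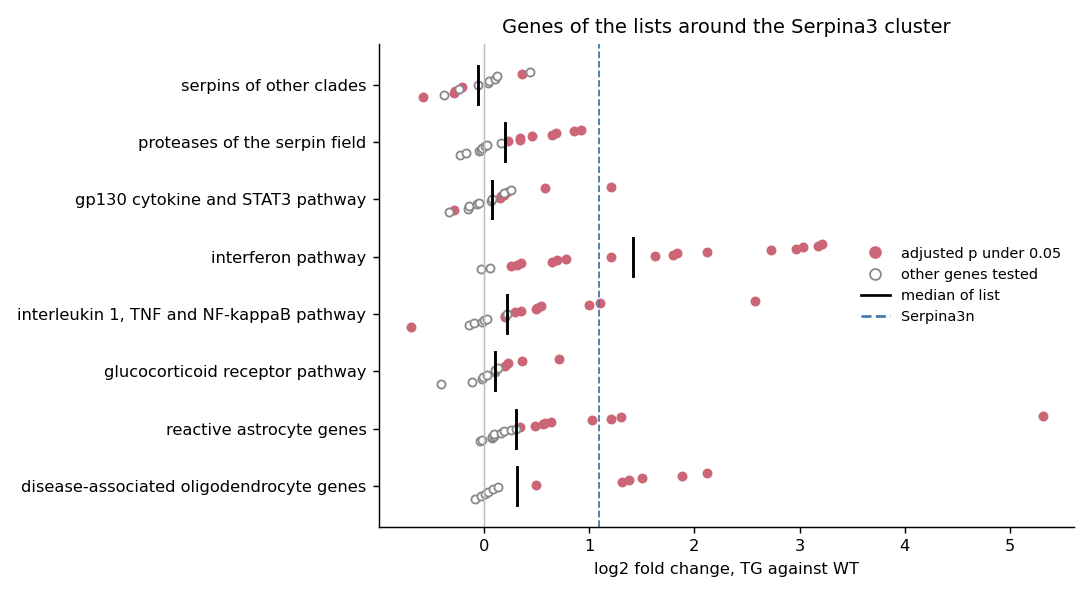
Log2 fold change, TG against WT, of each tested gene in the lists around the cluster, with filled points for an adjusted p under 0.05, a black line at the median of each list and a dashed line at the 1.10 of Serpina3n. The interferon list has the highest median at 1.42, and the serpins of other clades lie around -0.06.

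The other serpins were then counted. None of 5 other Serpina3 genes and 1 of 14 other clade A serpins had enough counts to be tested, and that gene, Serpina9, had a log2 fold change of -0.33 (SE 0.38, adjusted p = 0.507). Of 13 serpins of other clades tested, 1 was higher and 4 were lower, with a median log2 fold change of -0.06. These 5 calls are 38.5% of the list, against 43.6% of all genes tested. The gene that rose was Serping1, the inhibitor of complement component C1, at 0.36 (standard error 0.12, adjusted p = 0.0155). Serpini1, the neuronal inhibitor neuroserpin, went from 4839 to 6830 normalized counts in WT to 3030 to 4258 in TG mice without overlap and fell by 0.57 (log2; standard error 0.06). Markers of neurons moved with it, as 8 of 11 were lower and 1, Thy1, was higher, with a median log2 fold change of -0.43, and Snap25 stood at -0.76 and Nefl at -1.15. The part of this in the fall of Serpini1 was not tested. Serpinb1a fell by 0.28, Serpinb8 by 0.27 and Serpine2, also called protease nexin 1, by 0.20, and with library size alone 2 genes of the list were higher and 2 lower. Over the 31 alternatives 0 to 2 were higher, with 2 by DESeq2 and 0 without T_60303 and T_61340, and 2 to 4 were lower.

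Proteases that serpins of this kind can meet were counted as their field of targets. Of 16 genes tested, 8 rose and 0 fell, with a median log2 fold change of 0.20. Some lysosomal cathepsins led, with Ctsk at 0.92 (standard error 0.10), Ctss at 0.86 (standard error 0.07) and Ctsz at 0.65, and Plau, the urokinase plasminogen activator, rose by 0.69. Ctsb, the most abundant gene of the list, did not rise, with a log2 fold change of -0.05 (adjusted p = 0.440 by edgeR). It stood at 0.10 in cohort A alone and at -0.12 in cohort B alone (adjusted p = 0.0225 by edgeR). Ctss had 1172 to 1413 normalized counts in WT and 1522 to 2962 in TG mice, without overlap. The serine proteases best known as targets of Serpina3n were scarce or absent in the counts. Ctsg had 0 counts in all 21 mice, Cma1, the mast cell chymase, had 8, and Gzmb had 1 count in WT and 11 in TG mice.

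Finally, the genes that varied most like Serpina3n from mouse to mouse were sought. Genotype and cohort were first removed from log2 CPM, and the residuals of 14588 genes with a mean of at least 50 counts were correlated with those of Serpina3n over the 21 mice, as a description. The 10 closest genes were Slc15a3 (Pearson's r 0.75), Tlr2 (0.75), S100a11 (0.74), Ctsl (0.74), Gpnmb (0.73), Itgb2 (0.72), Gusb (0.72), Psme2b-2 (0.71), Triobp (0.69) and Csf1 (0.68). Slc15a3, a lysosomal transporter, Tlr2, a receptor of innate immunity, and Itgb2, an integrin of leukocytes, are known from myeloid cells, and Ctsl, Gusb and Gpnmb are lysosomal genes. The median r over all genes compared was -0.02.

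Which genes came closest depended on T_60303. Without that mouse the r of Slc15a3 was 0.58, of Tlr2 0.56, of Ctsl 0.59 and of Gpnmb 0.37, and 0 of the 10 genes stayed among the 10 closest, where Ehd3 then came first at 0.84. Psme2b-2 kept its value, at 0.74, and ranked 17. Over the 11 WT mice alone the r of the 10 genes ran from 0.35 for Gusb to 0.85 for Psme2b-2, with 0.80 for Tlr2 and 0.64 for both Slc15a3 and Ctsl. Sums of CPM over each list were compared as well, in which the most abundant genes weigh most. The summed protease list had an r of 0.70 with Serpina3n over all mice and of 0.68 without T_60303. Ctsb, with 277765 counts, was the most abundant gene of that list. Apoe, with 602174, was that of the disease-associated oligodendrocyte genes, so these sums lean on single genes. The microglial sum went from 0.60 to 0.33, the reactive astrocyte sum from 0.59 to 0.27 and the interferon sum from 0.50 to 0.11. The oligodendrocyte markers had an r of -0.06, and the disease-associated oligodendrocyte genes went from 0.46 to 0.17.

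**Figure D5:**
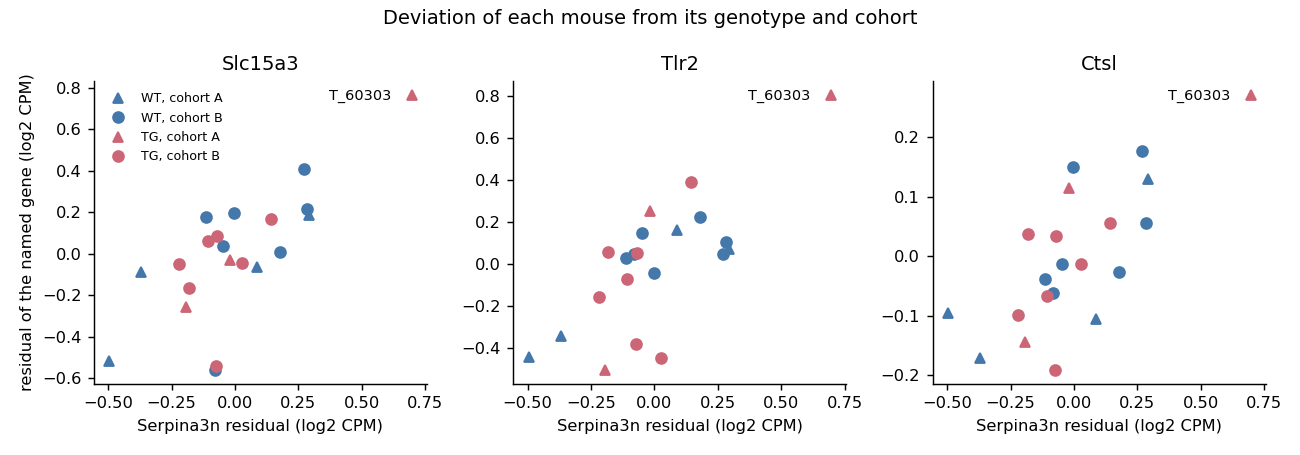
Deviation of each mouse from the level expected for its genotype and cohort (residual log2 CPM) for Serpina3n against Slc15a3, Tlr2 and Ctsl, with a point for each of the 21 mice. T_60303 is the point at the upper right of each panel, and without it the correlations are 0.58, 0.56 and 0.59 in place of 0.75, 0.75 and 0.74.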

How the data were processed

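Neocortex RNA of 21 mice was sequenced as paired reads of 100 bases. The authors mapped them to the mouse genome (GRCm38) and deposited a table of raw counts, whole numbers by gene symbol and not normalized. The submitters' processing notes name HISAT, HISAT2, Bowtie, Bowtie2 and RSEM, and which of them made the counts is not given in the sources used here. Whether reads were counted by strand is not given either. Genotype, batch (called cohort here, after the submitters' design text) and mouse number came from the sample labels.

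The members and lists were chosen with earlier results of these data known. Genes were named by a rule, namely the 6 members, the 10 genes closest to Serpina3n, up to 4 genes per pathway list with the largest change among those past the threshold, and Stat3, Socs3, Osmr, Gfap, Il6, Ifng, Ctsg, Cma1 and Gzmb. Nr3c1, Ifnb1, Alb, Ttr, Ctsb, Apoe, Il33, Clcf1, Serpina3c, Serpina3e-ps, Serpina3j, Serpina3k, Serpina9, Serpine2, Ehd3, Snap25, Nefl and Thy1 were added after their values were seen.

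The table was fitted with edgeR 4.0.16 in R 4.3.3 (filterByExpr with a minimum count of 10 and total of 15, TMM, quasi-likelihood test, Benjamini-Hochberg adjustment over all genes tested, threshold 0.05), with genotype and cohort in the model. Each standard error is the fold change on the log2 scale over the square root of F. Normalized counts are CPM on TMM-scaled libraries, set to the mean scaled library. Residuals were taken from log2 CPM with a prior count of 2. RPKM used the GENCODE M21 transcript chosen for each gene. Correlations with Serpina3g used log2(CPM + 0.05) and 100000 permutations. Permutation tests were two-sided. Further copies of a symbol, 2553 rows with 4.11% of counts, were kept, and none was a member. DESeq2 1.42.0, other scalings and filters, each cohort alone and leaving out each mouse were alternatives. The procedures were tested on simulated data. No sample was left out, and 1 gene that the rule names is not reported here.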

Additional observations from a re-analysis of the deposited data

Results flagged for a closer look

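A single mouse far from the rest of its group was found for 8 of 23 combinations of a member and a group of 4 to 10 mice, measured as the gap to the nearest mouse divided by the range of the group. Chance gives about 1 in 20 such groups for continuous values, a rate that does not hold for counts of 0 and 1 or for groups that share mice, so the number of groups is not read as an excess. Serpina3n in TG mice was led by T_60303, with 1001 normalized counts and a gap of 0.676 of the range. Serpina3f in TG mice was led by the same mouse, with 5 counts and a gap of 0.584. Serpina3h in WT mice of cohort B was led by T_70260, with 4 counts and a gap of 0.758. The other 5 were groups in which 1 mouse had a single count and all others had 0, which gives a gap of 1.0 whatever the gene: Serpina3f in WT mice of cohort A and of cohort B, Serpina3i in WT mice of cohort A, and Serpina3m in TG mice and in those of cohort B.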

How the results depend on the processing

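The members were chosen by the contrast of TG and WT mice, so its alternatives describe Serpina3n and give no independent support. The log2 fold change of Serpina3n kept its direction under all 31 alternatives, from 0.94 in cohort B alone to 1.42 in cohort A alone. With each mouse left out it was 0.98 to 1.13, and without T_60303 and T_61340 together, chosen after seeing the data, 0.95. Library size alone gave 1.18, with 5935 genes higher and 2797 lower (68.0% higher) in place of 4259 and 4044 (51.3%), and moved the median of all genes to 0.08.

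The number of genes past the threshold was 2195 in cohort A alone, 7126 in cohort B alone and 7778 to 8732 under the alternatives that kept both cohorts, apart from 7453 without cohort in the model. The interaction called 1 gene with DESeq2 and 0 to 1 with each mouse left out. The comparison of cohorts in WT mice called 567 to 1658 genes with each mouse left out, the fewest without T_61331 and 910 without T_70262. The Serpina3g difference between cohorts was 6.42 to 9.88 normalized counts with each WT mouse left out. Of the 10 genes closest to Serpina3n, 6 stayed with Spearman's rho, 0 in TG mice alone and 0 without T_60303. In the lists, 57 of 682 counts moved by over 1.5 times. The causes were not tested. No paired analysis was possible because the mouse numbers are unique. Depth limits the low members: the counting intervals of Serpina3h and Serpina3i include both a ratio of 1 and that of Serpina3n.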
